A study of Mus musculus with 4 samples.

Results

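Imprinted genes are expressed from only the maternal or only the paternal chromosome, and the choice is set by imprinting control regions, stretches of DNA that carry CpG methylation on one parental copy. At most such regions the mark is laid down in the egg. The control regions upstream of H19, upstream of Rasgrf1 and between Dlk1 and Meg3 are the textbook exceptions that receive it in the male germ line, so that sperm carries the methylated form and a body cell carries one methylated and one unmethylated copy. H19 and Meg3 are long noncoding RNAs made from the maternal copy, Dlk1 is a paternally expressed Notch-family ligand, Igf2 next to H19 is a paternally expressed growth factor, and Rasgrf1 is a guanine nucleotide exchange factor for Ras.

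The 3 windows were fixed by coordinates on mouse build mm9, the build named in the submitters' processing notes. The first was a 16 kb window set for the upstream control region of H19, on chromosome 7 from 149760000 to 149776000. A 28 kb window set for the region upstream of Rasgrf1 lay on chromosome 9 from 89758000 to 89786000. A 27 kb window on chromosome 12 from 110755000 to 110782000 was set for the Dlk1-Meg3 intergenic region and the Meg3 promoter. Whether a window also takes in part of its gene was not checked. All peaks that overlapped a window by at least 1 bp were taken, which gave 20 of the 690963 peaks in 4 lists. The H19 window held 5, the Rasgrf1 window 8 and the Meg3 window 7. No annotation or sequence on mm9 was used here, and window positions were not checked by build conversion, so peaks are given by position and not by exon, intron or element. On build GRCm38.p6 the RefSeq gene order places Dlk1 before Meg3 and H19 before Igf2.

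The measurement was MeDIP-seq, in which fragments bound by an antibody against 5-methylcytosine are sequenced. It reports how many methylated fragments a place yields, and it separates neither the parental copies nor CpG density from methylation level. The mice were of the outbred ICR strain. T2D founders (a type 2 diabetes model) were raised from 3 weeks of age on fat-rich chow (33% of its energy), were given a low dose of streptozotocin, a toxin of insulin-producing beta cells, at 12 weeks, and were kept if fasting glucose lay between 7 and 11 mM over the next 4 weeks; control founders ate control diet, and all mothers ate standard diet. Islets of Langerhans came from 3-week-old offspring of control or T2D fathers. Sperm, washed and put through somatic cell lysis, came from the founders themselves (control or T2D) at 16 weeks of age. For each group 6 animals were named. Tissue, age and generation thus differ together wherever sperm is set against islets. The offspring groups are set apart by their father's treatment, which combines diet and toxin. Each group was 1 library, how animals were combined is not stated, and no difference below has a replicate check or a test.

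A peak held 18 to 295 tags (sequenced reads) in the 7 islet peaks of the windows and 33 to 403 tags in the 13 sperm peaks. Depth was stated for sperm only, with 31053754 unique tags in control and 31833988 in T2D. The islet lists held 167712 and 167325 peaks in control and T2D, with medians of 39 tags in each, and the sperm lists 177342 and 178584, with medians of 50. Peaks of the 4 lists that overlapped were merged into 307189 regions, 11 of them in the windows. Intervals on tags and ratios are 95% intervals that cover counting error only, since PCR copies are not independent molecules.

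The Meg3 promoter is shown because it is the one element named in the rule for which a sequence was at hand. Its position on mm9 was not determined, so it was not matched to any peak of the window. The sequence is that of RefSeq on GRCm38.p6, plus strand, chr12:109540746-109541045, from 250 bases before to 50 bases after the transcript's start, with each CpG, the site that MeDIP reads when methylated, in capitals.
Meg3 promoter: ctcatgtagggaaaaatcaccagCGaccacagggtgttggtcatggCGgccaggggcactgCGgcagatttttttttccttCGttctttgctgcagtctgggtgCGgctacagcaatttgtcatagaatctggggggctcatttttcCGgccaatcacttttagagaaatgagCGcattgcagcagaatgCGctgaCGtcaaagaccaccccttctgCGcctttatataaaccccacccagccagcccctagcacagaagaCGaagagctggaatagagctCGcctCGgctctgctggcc
The table holds 2 Meg3 promoters, and the one at the start of the gene is shown; the other, at a later start, holds 1 CpG. The one shown holds 13 CpGs, against a median of 7 over 32851 mouse promoter windows of the same length, and 37.9% of those held as many or more. The cAMP response element TGACGTCA, whose reverse complement is the same, begins 57 bases before the start and has a CpG in its core. Searched on both strands, it occurred in 1.79% of the promoter windows. The TATA sequence TATATAA begins 27 bases before the start and occurred on either strand in 3.24% of windows. These matches describe the letters of the window and no binding was measured. Of the 3 genes, Meg3 and Rasgrf1 had promoters in the table and H19 had none.

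**Figure D1:**
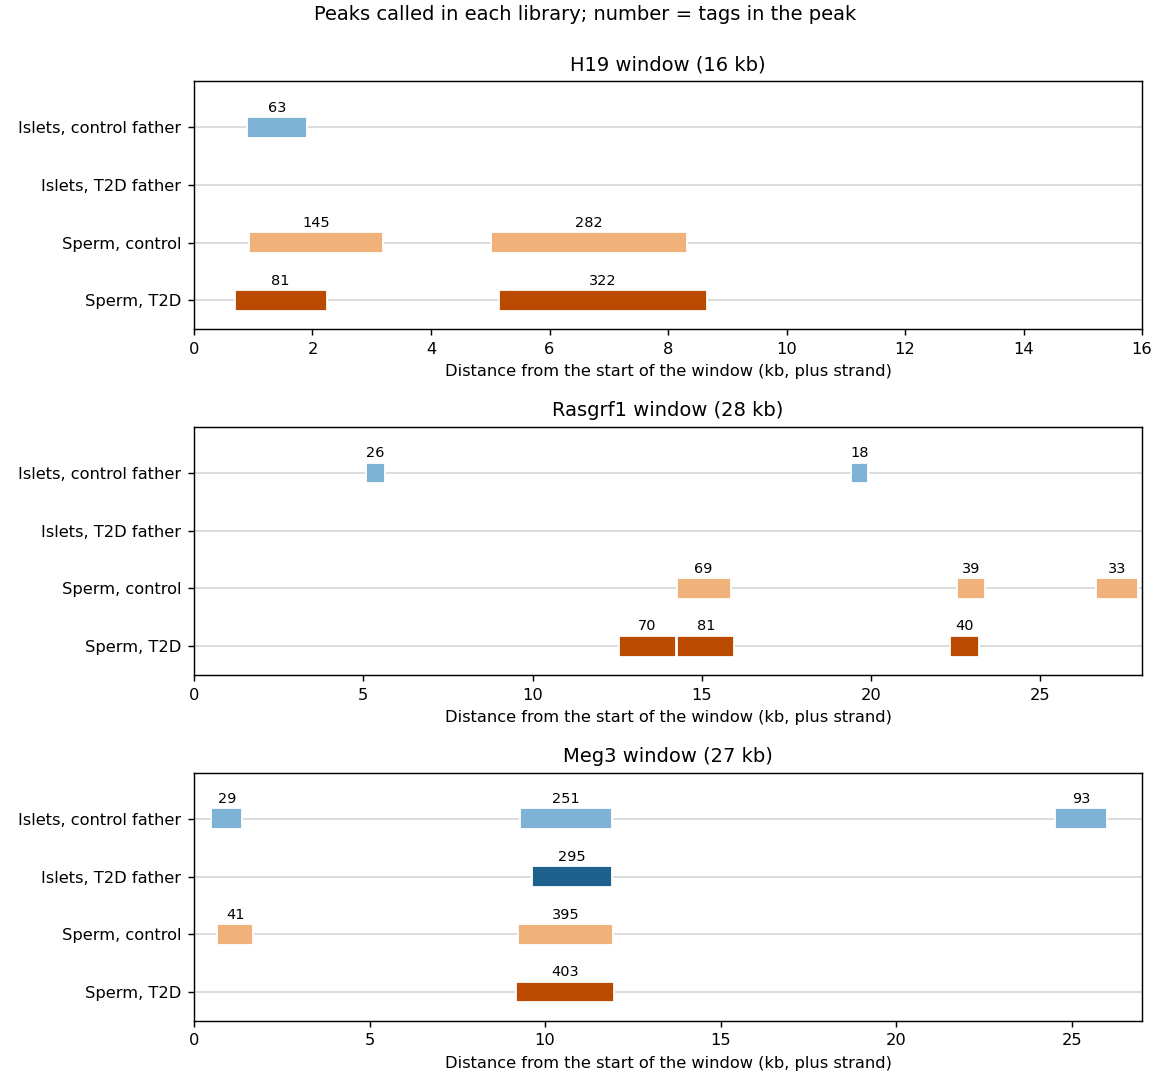
Peaks of each library in the H19, Rasgrf1 and Meg3 windows. The x axis is the distance in kb from the start of the window, each box is 1 called peak and the number above it is its tags; only the Meg3 window, at about 9 to 12 kb, has a peak in all 4 libraries.

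All 3 windows had peaks in both sperm libraries, and 1 of them, the Meg3 window, in both islet libraries. Peaks in both sperm libraries were also found in 55.5%, 69.0% and 68.2% of all genome bins as long as the H19, Rasgrf1 and Meg3 windows, and peaks in both islet libraries in 53.8%, 69.2% and 68.3%, so presence alone does not set the windows apart. The region with the most tags lay in the interior of the Dlk1-Meg3 window, on chromosome 12 from 110764158 to 110766967. It was called in both islet and both sperm libraries. Control islets had 251 tags (Poisson interval 221 to 284) in a peak of 2602 bp, and islets of T2D offspring had 295 tags (262 to 331) in 2283 bp. Control sperm had 395 tags (357 to 436) in 2712 bp and T2D sperm 403 tags (365 to 444) in 2810 bp. Both sperm values were above both islet values, and within each tissue the counting intervals of control and T2D overlapped. With 1344 tags summed over the 4 libraries, it ranked 28 among the 65911 regions of the genome called in all 4, whose median was 234. That pattern was held by 21.5% of all merged regions, and in the windows by 1 of 11.

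The 4 peak summits at this place, where reads piled up highest, lay within 52 bp of each other. Over 63771 regions with 1 peak in each library the median spread was 68 bp, and 61.5% were more spread than this one. In tags per kb of called peak, the level was 96.5 in control islets, 129 in T2D islets, 146 in control sperm and 143 in T2D sperm. Between 97.6% and 99.8% of the peaks in each of the 4 lists were less dense.

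The H19 window differed between the tissues. A broad region on chromosome 7 from 149765015 to 149768657 was called in both sperm libraries and in neither islet library. Control sperm had 282 tags (250 to 317) over 3298 bp, and T2D sperm had 322 tags (288 to 359) over 3509 bp. Neither islet list held any peak over these bases. The pattern of both sperm and neither islet library was shared by 9.07% of all merged regions (3 of 11 in the windows), and by tags the H19 region ranked 26 among those 27871, with 604 summed tags against a median of 87. Of the 208 merged regions with at least 282 tags in each sperm library, 14.9% likewise had no islet peak.

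An uncalled place is not a place without tags, because the lists hold only peaks past the caller's threshold. Peaks this broad were rare and called at high counts in islets. Only 85 control and 94 T2D islet peaks were at least 3298 bp wide, and the lowest of them held 174 and 142 tags. In sperm 346 control and 283 T2D peaks were that wide. An islet peak here need not be as broad, and islet peaks of any width were called from 18 tags in each list.

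The summits of the broad H19 peak did not coincide. They lay at 149767705 in control and 149766234 in T2D sperm, 1471 bp apart. The median distance over 121990 regions with 1 peak in each sperm library was 28 bp, and 0.17% were farther apart. Those regions were of any width, and the median sperm peak was 988 bp wide in control and 979 bp in T2D. Most were thus too narrow for such a distance, and broad peaks alone were not compared. The ends of the called intervals were closer to each other, with starts at 149765015 and 149765149 and ends at 149768312 and 149768657.

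The other H19-window region lay nearer the window's start, from 149760685 to 149763190, and was called in 3 libraries. Control islets had 63 tags (48.4 to 80.6) over 1013 bp, and T2D islets had no peak. Control sperm had 145 tags (122 to 171) over 2263 bp and T2D sperm 81 (64.3 to 101) over 1557 bp. In each tissue the T2D library had the lower count or no peak. The 3 summits lay within 59 bp. Called in control islets and both sperm libraries but not in T2D islets were 4.83% of all merged regions.

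The Rasgrf1 window held weaker peaks, and no place in it was called in both tissues. The sperm libraries shared a region from 89772256 to 89773952, with 69 tags (53.7 to 87.3) over 1595 bp in control and 81 tags (64.3 to 101) over 1676 bp in T2D. A further shared sperm region, from 89780329 to 89781370, had 39 tags in control and 40 tags in T2D. The summits were 19 bp apart in the former and 90 bp apart in the latter. Among regions called in both sperm and neither islet library, 83.3% had fewer summed tags than the former, which had 150, and 41.0% had fewer than the latter, which had 79.

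Other Rasgrf1-window peaks each belonged to a single library. T2D sperm had 70 tags (54.6 to 88.4) from 89770543 to 89772228, which ended 28 bp before the start of the control sperm peak just described and 49 bp before that of T2D sperm. Control sperm had 33 tags from 89784638 to 89785879. Regions called in T2D sperm alone of the 4 libraries made up 10.1% of all merged regions, and those called in control sperm alone 9.09%. Control islets had 26 tags from 89763092 to 89763627 and 18 tags from 89777417 to 89777909, the latter equal to the lowest tag count of the whole list. None of the 8 peaks in this window reached a caller's score of 100 (10 times the negative log10 of the p-value), against medians of 83.5 to 87.5 in the 4 lists.

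The Meg3 window had 2 more regions, both in controls. At its lower end, from 110755495 to 110756689, control islets had 29 tags and control sperm 41 tags, with summits 46 bp apart, and neither T2D list had a peak. Called in control and not T2D in both tissues were 2.25% of all merged regions, and 2.23% had the opposite pattern. At its upper end, on the Meg3 side, control islets had 93 tags (75.1 to 114) over 1467 bp from 110779527 to 110780993. No other library had a peak there, including both sperm libraries. Control islets only was the pattern of 8.22% of merged regions (3 of 11 in the windows), and 97.0% of these had fewer tags than the 93 found here.

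**Figure D2:**
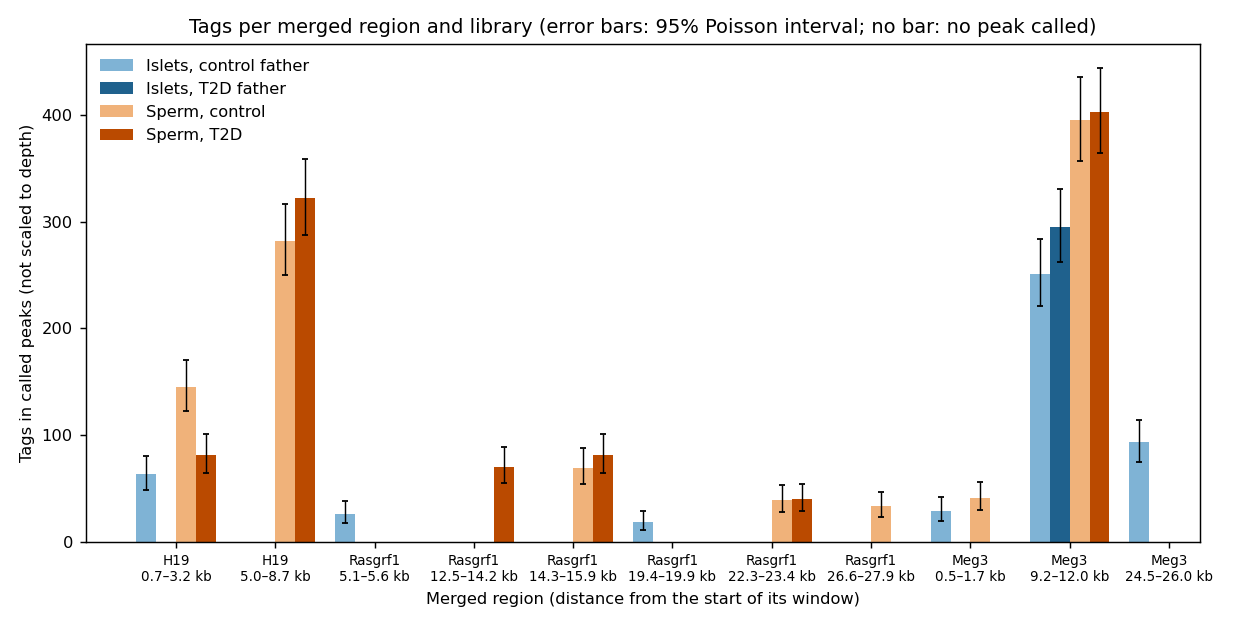
Tags in called peaks for each of the 11 merged regions, by library. Bars start at 0 and are not scaled to depth, error bars are 95% Poisson intervals, and a missing bar means that no peak was called; the regions with the most tags are the interior Meg3-window region and the broad H19-window region.

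Sperm was then set against islets over whole windows. Of the 11 merged regions, 5 had a sperm peak and no islet peak, against 28.3% of all merged regions, and 3 had an islet peak and no sperm peak, against 24.9%. No window region was called in both islet lists without a sperm peak, a pattern held by 8.39%. The H19 window had 427 and 403 tags in control and T2D sperm, and 63 and 0 tags in peaks of control and T2D islets. The Rasgrf1 window had 141 and 191 tags in sperm and 44 and 0 in islets. The Meg3 window had 436 and 403 tags in sperm and 373 and 295 in islets. The called length behind these sums differed too. In control, peaks covered 5561 bp in sperm and 1013 bp in islets in the H19 window, and 3661 bp and 1029 bp in the Rasgrf1 window. In the Meg3 window they covered 3743 bp and 4951 bp in control, where sperm had more tags, not scaled to depth, in fewer called bases. In T2D the Meg3-window peak covered 2810 bp in sperm and 2283 bp in islets.

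Because the depth of the islet libraries was not stated, sperm-to-islet ratios were divided by the median over all regions called in all 4 libraries, which was 1.39 for the summed conditions. The H19 window stood at 9.49 times that median, the Rasgrf1 window at 5.44 times and the Meg3 window at 0.905 times. These are ratios of tags in called peaks in which uncalled places count as 0, as all of both former windows do in T2D islets, and not fold changes of methylation. Tags per kb of called peak is a measure that leaves out places without a peak, and its ratio was likewise divided by its median over regions called in all 4 libraries. By it the H19 window stood at 1.05 and the Rasgrf1 window at 0.826, the opposite direction. In the H19 window the sperm peaks covered more bases than the single islet peak. Without scaling, their density was 76.78 tags per kb in control and 79.55 in T2D sperm, against 62.19 in control islets.

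For single regions called in both tissues, ratios ran from 0.993 to 1.66 times the median of the genome. In the interior Meg3-window region, the control libraries gave 1.57 (1.34 to 1.85), which is 1.14 relative to the median, and the T2D libraries gave 1.37 (1.17 to 1.59), or 0.993 relative to it. In the lower H19-window region the control ratio was 2.30 (1.70 to 3.14), or 1.66 relative to the median. Among the 65911 regions called in all 4 libraries, 14.7% had a relative ratio of at least 1.5 in either comparison. One of 1/1.5 or less, which no window region had, was found in 16.3% for control and 17.1% for T2D. The lower H19-window region, called in 3 libraries, is not among those regions. Its density was nearly equal in the control libraries, with 64.1 tags per kb in sperm and 62.2 in islets. At the lower end of the Meg3 window the control ratio was 1.41 (0.858 to 2.36), or 1.02 relative to the median.

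Against all bins of 16 kb across the genome, the H19 window ranked high in sperm. Its tags exceeded those of 99.3% of bins in control and 99.2% in T2D sperm, and those of 68.1% in control islets. T2D islets had no peak in the H19 and Rasgrf1 windows and 1 in the Meg3 window, and had at least 1 peak in 62.6% of bins at 16 kb, 75.9% at 28 kb and 75.1% at 27 kb. Bins with a peak in both sperm and control islets but not in T2D islets, as in the H19 and Rasgrf1 windows, made up 3.98% at 16 kb and 2.94% at 28 kb. The Rasgrf1 window exceeded 65.8% of bins in control and 75.1% in T2D sperm. The Meg3 window exceeded 98.1% and 95.6% of 27 kb bins in control and T2D islets, and 96.7% and 95.7% in control and T2D sperm.

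Peaks continued outside the windows. The nearest past the upper edge of the Meg3 window began 1715 to 1986 bp from it in all 4 libraries, with 105 and 110 tags in control and T2D islets and 127 and 101 tags in control and T2D sperm. Before the H19 window, sperm had peaks of 40 and 31 tags at 837 and 846 bp, while the nearest islet peaks were 20214 and 20131 bp away. Past its upper edge the nearest peaks held 18 tags in control islets at 1602 bp and 22 tags in T2D islets at 9658 bp, and 26 tags in control sperm at 1622 bp and 49 tags in T2D sperm at 7479 bp. All 4 libraries had a peak of 35 to 69 tags 2228 to 2701 bp before the Rasgrf1 window.

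The design asks whether paternal diabetes goes with methylation in the father's sperm and in the offspring's islets. In sperm, 5 window regions were called in both conditions and none was 1.5 times higher in T2D, against 8.38% of all such regions. T2D over control tags came to 1.02 (0.886 to 1.17) in the interior Meg3-window region and 1.14 (0.970 to 1.34) in the broad H19-window region. The shared Rasgrf1-window regions had 1.17 (0.841 to 1.64) and 1.03 (0.643 to 1.64). The intervals of these 4 included 1, and the median over 123442 regions was 1. The lower H19-window region was the exception, at 0.559 (0.420 to 0.738). A ratio of 1/1.5 or less was found in 8.12% of regions and 2.92% had a lower one. Its called width was also smaller in T2D, and in tags per kb the ratio was 0.812. Over whole windows, with uncalled places counted as 0, the sperm ratio was 0.944 (0.822 to 1.08) for H19. It was 1.35 (1.08 to 1.70) for Rasgrf1 and 0.924 (0.805 to 1.06) for Meg3.

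**Figure D3:**
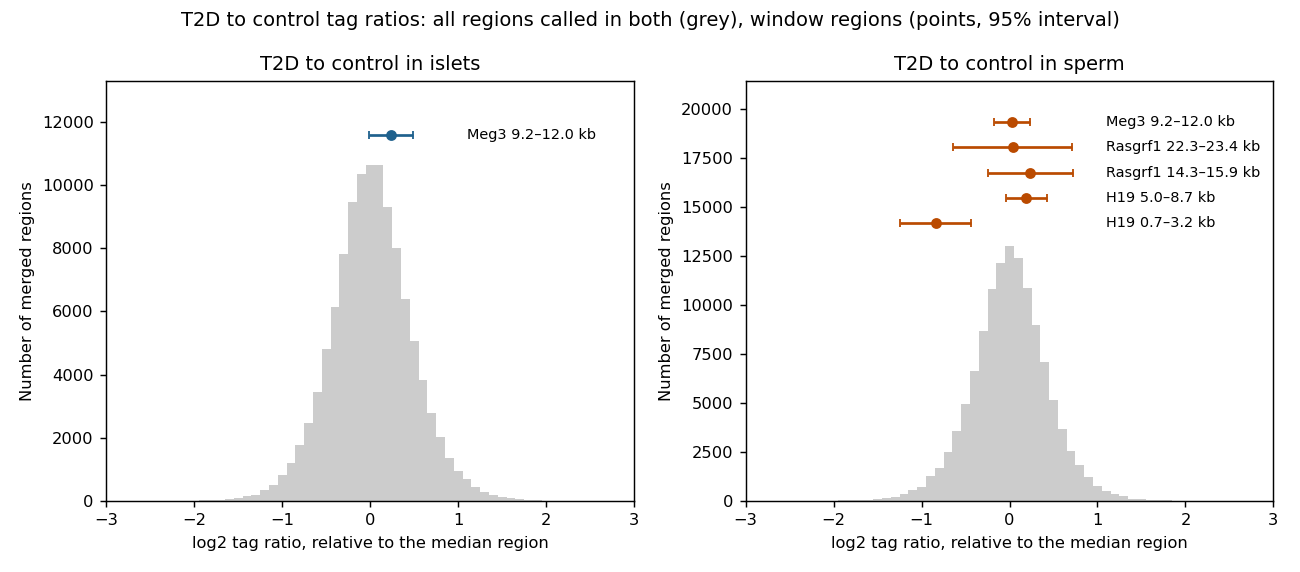
T2D to control tag ratios on a log2 scale, relative to the median region, in islets (left) and sperm (right). Grey bars count all merged regions called in both libraries, and points with 95% exact binomial intervals are the window regions; in sperm 4 of 5 have intervals that include the median region and the lower H19-window region lies to the left.

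In islets, 5 of the 11 window regions were called in control and not in T2D, against 17.5% of all merged regions, and none in T2D and not in control, against 17.5%. T2D islets thus had a peak in 1 of the 11 regions, where 54.2% of all merged regions had one, and control islets in 6, where 54.2% had one. In sperm 2 regions were control only, against 17.3%, and 1 was T2D only, against 17.7%, so that control sperm had a peak in 7 of the 11, against 57.5%, and T2D sperm in 6, against 57.9%. The 5 islet regions lie in 3 windows and are few. The one region called in both islet libraries, the interior Meg3-window region, had a T2D to control ratio of 1.18 (0.990 to 1.40), higher in T2D and with an interval that includes 1, and 1.34 in tags per kb. Over 112590 regions called in both islet libraries, 10.4% had a ratio of at least 1.5 and 8.94% one of 1/1.5 or less.

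Of all 167712 control islet peaks, 32.2% had no T2D partner. Among peaks with scores within 5 of theirs, the share was higher for most control-only islet peaks of the windows. The exception was the 26-tag Rasgrf1-window peak, at 31.7%. The peak of 93 tags on the Meg3 side had a score of 63.8. Of the 26269 control islet peaks with a score within 5 of it, 49.0% had no T2D partner, but of the 14729 peaks with at least as many tags 13.2% had none. The 63-tag H19-window peak had the same score of 63.8, with 49.0% and 14.6% in that order. The remaining control-only islet peaks, of 18 to 29 tags, had scores of 50.7 to 86.0. Of control islet peaks with like scores 31.7% to 57.6% had no partner, and of those with at least as many tags 23.1% to 32.2%. The 70-tag T2D sperm peak in the Rasgrf1 window had a score of 63.0, and 47.8% of T2D sperm peaks with like scores and 15.3% of those with at least as many tags had no control partner.

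The broad H19-window peaks and the interior Meg3-window peaks, singled out here because they held the most tags, had low deposited fold enrichments, the ratio to the background that the caller estimated. The interior Meg3-window peaks were wider than 98.0% to 99.3% of their lists, and the broad H19-window peaks than 99.8% and 99.9%. Their enrichments were 5.77, 5.30, 4.24 and 5.34 at Meg3 in control and T2D islets and control and T2D sperm, and 4.48 and 3.28 at H19 in control and T2D sperm, against list medians of 6.75 to 7.35. The other window peaks had enrichments of 4.08 to 7.62, the highest in the narrow Rasgrf1-window peak of 536 bp. Only 0.202% of T2D sperm peaks had a lower enrichment than the 3.28 at H19. Low enrichment went with width in each list as a whole. Peaks of at least 2000 bp had median enrichments of 5.33 and 5.23 in control and T2D islets and 5.31 and 5.21 in control and T2D sperm. The 3.28 at H19 was low for its width too, below the 5% bound of 3.34 for T2D sperm peaks of like width. Per the sperm file headers the local background was taken over 5000 bp, a span that a peak of 3509 bp mostly fills; its part in the low enrichments was not tested.

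**Figure D4:**
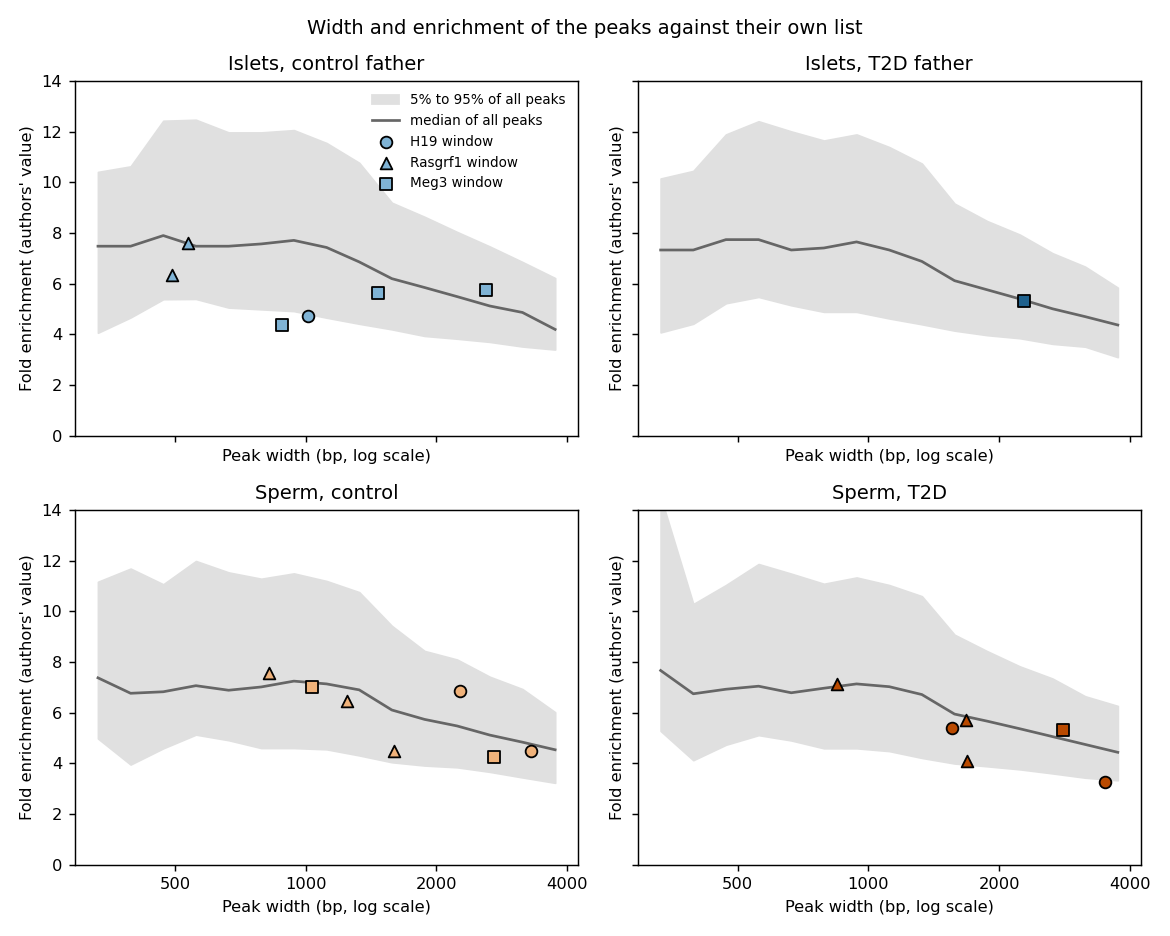
Width in bp (log scale) and the authors' fold enrichment of the window peaks (symbols by window) in each of the 4 libraries. The grey band spans the 5% to 95% range of all peaks of that list at that width and the line is their median. The line falls towards large widths, and the widest H19 peak in T2D sperm lies just below the band.

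The caller's scores ranked the peaks in another order than their tags. In T2D islets the interior Meg3-window peak scored 269, above 99.0% of its own list, and the corresponding peaks of the other 3 libraries scored 160 to 168, above 88.7% to 89.2% of theirs. The lower H19-window peak of control sperm scored 144. The broad H19-window peaks scored 87.0 and 73.7 in control and T2D sperm, above 49.6% and 36.9% of their lists, although 99.8% and 99.9% of peaks had fewer tags. A score of at least 100 was reached by 1 of 6 window peaks in control islets, where 36.2% of all peaks reached it, and by the single one in T2D islets, where 35.2% did. In sperm it was reached by 2 of 7 in control, against 39.6%, and by 1 of 6 in T2D, against 38.0%. A common score threshold is not on the same scale in libraries of different depth.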

How the data were processed

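MeDIP-seq peak lists of 4 mouse libraries were used, 1 per group: islets of offspring of control and T2D fathers, and sperm of control and T2D founders. The submitters' processing notes name mm9 and CASAVA 1.4. Per the file headers, the sperm peaks were called with MACS without a control library, on 49 bp tags, with a p-value cutoff of 1.00e-05, a local background over 5000 bp and at most 2 duplicate tags per position. For the islet lists, which carry the same columns, the caller and its settings appear in no source used here. The deposited tags are whole counts per peak, not scaled to depth. The deposited score is 10 times the negative log10 of the p-value that the caller gave, and the deposited fold enrichment is a ratio to the caller's background; both are the authors' values for each peak and were used to describe or rank peaks within a list, apart from a score threshold of 100 applied to all 4 lists.

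Peaks overlapping a window by at least 1 bp were members. Peaks of the 4 lists sharing at least 1 bp were merged, and tags summed per library. Ratios carry exact binomial and tags exact Poisson intervals at 95%. Bins of each window's length tiled the genome from position 1 to the last peak of each chromosome. Python 3.11.15, numpy 2.4.6, pandas 2.3.3 and scipy 1.17.1 were used, and the merging and ratio steps were tested on simulated lists. With 1 library per group no test was made. Alternatives were the score threshold, the window edges, the overlap rule, the scaling and tags per kb. Windows and comparisons were chosen with earlier results of these data known. All regions merged in the windows are described.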

Additional observations from a re-analysis of the deposited data

Results flagged for a closer look

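In the Rasgrf1 window, tags in called peaks differed between T2D and control in opposite directions in the tissues: the difference was -44 in islets (0 against 44 tags) and 50 in sperm (191 against 141 tags). The islet and sperm peaks lay at different places, and no region of this window was called in both tissues. With 1 library per group every sample of each tissue moved its own way by construction, and the difference between tissues was not tested.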

How the results depend on the processing

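No paired analysis was possible because each group had 1 library and the labels carry no replicate numbers. With only peaks of a score of at least 100, peaks in the H19 window went from 1 to 0 in islets and from 4 to 1 in sperm, those in the Rasgrf1 window from 2 to 0 and from 6 to 0, and those in the Meg3 window from 4 to 2 in islets. The Meg3-window ratio then went from 0.905 to 1.05 for sperm to islets and turned from 0.791 to 1.18 for T2D to control in islets, because only the interior peak was left. With windows widened by 5 kb on each side, peaks rose to 2 in islets and 7 in sperm for H19, 4 in islets for Rasgrf1 and 8 in sperm for Meg3, and the Rasgrf1-window sperm-to-islet ratio went from 5.44 to 2.68. With windows narrowed by 2 kb, the H19 islet peak was lost (0) and the T2D to control ratio in sperm for the Rasgrf1 window went from 1.35 to 1.77. Without scaling, the sperm-to-islet ratio was 13.2 for H19 and 1.26 for Meg3. In tags per kb it was 1.05 for H19, 0.826 for Rasgrf1 (a turn of direction) and 1.16 for Meg3, and T2D to control for Meg3 was 1.22 in sperm and 1.76 in islets, the latter a turn of direction. With summits required inside the window, or scaling by total or unique tags, no value moved past its interval. With a reciprocal overlap of 50%, the lower H19-window region went from 3 to 2 libraries and the other regions kept their number. The one left out was the control islet peak, so that the region was no longer shared between the tissues. With partners within 1000 bp only the 70-tag Rasgrf1-window peak of T2D sperm changed, from 1 to 2 libraries. Depth limits what an absent peak can show, since the depth of the islet libraries is unknown and the lists hold only called places.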
